A study of Rattus norvegicus with 48 samples.

Results

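The ulna bones of diabetic ZDF rats given PTH or placebo were compared for their miRNA levels by small RNA sequencing. The comparison holds 8 of the 48 libraries of the series, 4 from PTH-treated and 4 from placebo-treated animals, chosen by their labels for tissue, genotype and treatment. The rats were male ZDF fa/fa animals, which carry a homozygous mutation of the leptin receptor and serve as a model of type 2 diabetes. All of them, in both groups, ate a high-fat chow and had a surgical defect made in the femur, a bone that was not sequenced. Treatment began at 11 weeks of age and lasted 12 weeks. PTH was injected at 75 µg/kg on 5 days a week, and the study lists the placebo, a vehicle, as given daily. Bones came from the rats that gave serum for the series, except for 2 of the 4 PTH-treated bones, and the labels do not say which. WT rats (Zucker lean, ZDF +/+) under the same treatments, with 4 bones a group, are used below for comparison.

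PTH (parathyroid hormone) raises blood calcium and, when given intermittently, is a bone-building drug that acts on osteoblasts and osteocytes through the PTH receptor and cyclic AMP. MiRNAs are short RNAs that guide the silencing of messenger RNAs, which they recognize mainly through the seed, the bases 2 to 8 from their 5′ end. Many miRNAs come from clusters or from hairpins inside other genes, and the sum of reads from a whole bone mixes those of osteoblasts, osteocytes, marrow, vessels and any muscle left on the bone. A change in the number of cells of a type and a change in the level per cell cannot be told apart in such data.

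No miRNA passed FDR < 0.2 in ZDF ulna (edgeR's quasi-likelihood test, 0% of 215 tested, lowest FDR 0.383). At an unadjusted p under 0.05 there were 13 miRNAs, or 6.05% of those tested, 10 with a higher mean under PTH (4.65%) and 3 with a lower mean (1.4%). The higher ones were miR-132-3p, miR-10b-5p, miR-382-5p, miR-340-5p, miR-148a-5p, miR-542-3p, miR-1b, miR-127-3p, miR-341 and miR-181d-5p, and the lower ones miR-301a-3p, miR-339-5p and miR-126a-3p. Apart from miR-132-3p, each of them had an FDR of 0.678, and no other tested miRNA had a lower one. DESeq2 called 1, miR-132-3p (FDR = 0.179), and limma-voom called 0, with 23 and 16 miRNAs at an unadjusted p under 0.05. The 4 PTH-treated bones lay apart from the 4 placebo bones for 4 miRNAs, or 1.86%: miR-132-3p and miR-10b-5p above placebo (0.93%), and miR-126a-3p and miR-301a-3p below it (0.93%). Without a true difference, full separation in either direction has a probability of 0.0286 for each miRNA. The share seen did not exceed that.

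The mature sequences below are those of the miRNAs on which the results turn, as RefSeq lists them, 5′ to 3′, with the seed in capitals. They show which of them share a seed and so may share targets.
miR-132-3p: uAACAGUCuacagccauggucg
miR-212-3p: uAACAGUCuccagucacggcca
miR-10b-5p: cCCUGUAGaaccgaauuugugu
miR-10a-5p: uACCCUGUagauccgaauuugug
miR-126a-3p: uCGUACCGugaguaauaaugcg
miR-1b: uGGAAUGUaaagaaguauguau
miR-206-3p: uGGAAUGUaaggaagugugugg
miR-382-5p: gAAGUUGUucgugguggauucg
miR-127-3p: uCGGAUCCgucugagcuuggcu
miR-339-5p: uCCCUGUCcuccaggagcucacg

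The coordinates are those of the RefSeq annotation on GRCr8. MiR-132-3p (chr10:60522091-60522112, plus strand) lies beside miR-212-3p (chr10:60521811-60521832, plus strand), with the same seed and outside any annotated host gene. MiR-10b-5p (chr3:80035886-80035907, plus strand) lies within Hoxd4, a homeobox gene of the Hoxd cluster, and miR-10a-5p is on chromosome 10. As listed, miR-10b-5p starts later within a shared stretch than miR-10a-5p, so their capitals differ. MiR-126a-3p (chr3:29813219-29813240, plus strand) lies within Egfl7, a gene of endothelial cells. MiR-382-5p (chr6:134569956-134569977, plus strand) and miR-127-3p (chr6:134328510-134328531, plus strand) belong to the imprinted Dlk1-Dio3 region. The position of miR-127-3p overlaps Rtl1, which does not make Rtl1 its host gene. Containing genes were matched by position, without regard to strand. MiR-1b and miR-206-3p share the seed of the muscle miRNAs.

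Each library held 116097 to 1398702 reads on miRNAs, 4.87% to 21.5% of its reads. Under PTH the totals were 403949, 264575, 191926 and 971036 miRNA reads in replicates 1 to 4, and under placebo 192505, 1398702, 116097 and 209490. The share of reads on miRNAs was 12.6%, 6.79%, 7.06% and 11.4% under PTH and 4.87%, 21.5%, 4.99% and 7.92% under placebo (exact permutation test, two-sided, p = 0.771). Of 763 listed miRNAs, 569 had a read in these bones and 215 were abundant enough to test, and the latter took at least 99.6% of the miRNA reads of each library. The tissue label was checked against marker miRNAs: the mesenchymal and osteoblast list summed to 137733 to 196679 CPM, while liver's miR-122-5p had 5 reads over the 8 libraries. The striated muscle list also stood at 118254 to 433857 CPM, and its miR-133a-3p had the highest mean of all miRNAs. Values are CPM after TMM scaling, that is, counts scaled to the miRNA reads of the library and adjusted for composition.

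MiR-132-3p had the smallest p-value. With miR-212 it forms a cluster that is known as a target of CREB, the transcription factor activated by cyclic AMP. Its level was 301, 270.4, 299.9 and 307 CPM in the PTH-treated bones and 132, 121, 150.0 and 151 CPM in the placebo bones. The lowest PTH library thus lay well above the highest placebo library. The means were 294.6 ± 16.4 and 138.5 ± 14.3 CPM (SD, n = 4 each), a log2 fold change (log2FC) of 1.10 with an SE of 0.27 (95% interval 0.51 to 1.69; edgeR FDR = 0.383). The exact permutation test, two-sided, gave p = 0.0286, the smallest that 4 against 4 allows, and so it did for the other 3 miRNAs whose groups lay apart. Full separation always gives this p, so it only restates that the groups lay apart. The levels of miR-132-3p rest on 54 to 304 reads under PTH and 20 to 149 under placebo. Counting noise at such depths is wider than the spread within each group, so the narrow groups do not measure the variation between animals. Both groups stayed apart when reads were scaled to miRNA totals or by TMM over all 16 bones, but overlapped relative to all reads of the library, at 17.2 to 38.2 RPM under PTH and 6.57 to 22.9 RPM under placebo. That last scale also carries the share of reads on miRNAs given above.

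The other products of the miR-132/212 hairpins were too rare to test. MiR-212-3p had 6, 1, 0 and 17 reads in the PTH-treated bones and 0, 12, 0 and 2 reads in the placebo bones. MiR-132-5p, from the other arm of the same hairpin, had 31 reads in all under PTH and 24 under placebo. No difference in either of them was detectable at this depth.

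MiR-10b-5p, a miRNA encoded in the Hoxd cluster, was at 1750, 2244, 1483 and 1193.1 CPM under PTH. Under placebo it was at 1152, 761, 1192.7 and 822 CPM. PTH 4 and placebo 3 were all but equal, so the groups only just did not overlap, and they did overlap under TMM over 16 bones (1127 to 2345 against 846 to 1160 CPM) and when scaled to miRNA totals. The log2FC was 0.77 with an SE of 0.29. MiR-10a-5p, its near-identical relative, was at 652 ± 44.7 CPM under PTH and 518 ± 137 under placebo (log2FC 0.34, SE 0.28). Reads of such a pair can be split between them by mapping with a mismatch, so the values of each are uncertain. The other arm, miR-10b-3p, had a log2FC of -0.14 (SE 0.29).

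MiR-126a-3p, the main miRNA of endothelial cells, was at 12662, 14645, 15056 and 16551 CPM under PTH and 16801, 25968, 21153 and 19653 CPM under placebo. All PTH-treated bones were lower, but PTH 4 and placebo 1 lay close together. The log2FC was -0.50 with an SE of 0.22. MiR-126a-5p, from the same hairpin, was at 5713 ± 1379 CPM under PTH and 6812 ± 2481 CPM under placebo (log2FC -0.25, SE 0.29), with overlapping groups. These 2 miRNAs make up the endothelial list, and its sum was 17054 to 23657 CPM under PTH and 22690 to 36475 CPM under placebo.

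MiR-301a-3p, of the miR-130/301 family, was at 154, 174, 217 and 201 CPM under PTH and 279, 315, 352.5 and 242 CPM under placebo. Every placebo bone was higher than every PTH-treated bone. The log2FC was -0.67 with an SE of 0.28. Its relative miR-130a-3p had means of 549 ± 154 and 729.5 ± 134 CPM (log2FC -0.41, SE 0.29), and the groups overlapped. The separations of miR-126a-3p and miR-301a-3p held under both miRNA-based scales and were lost relative to all library reads.

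**Figure D1:**
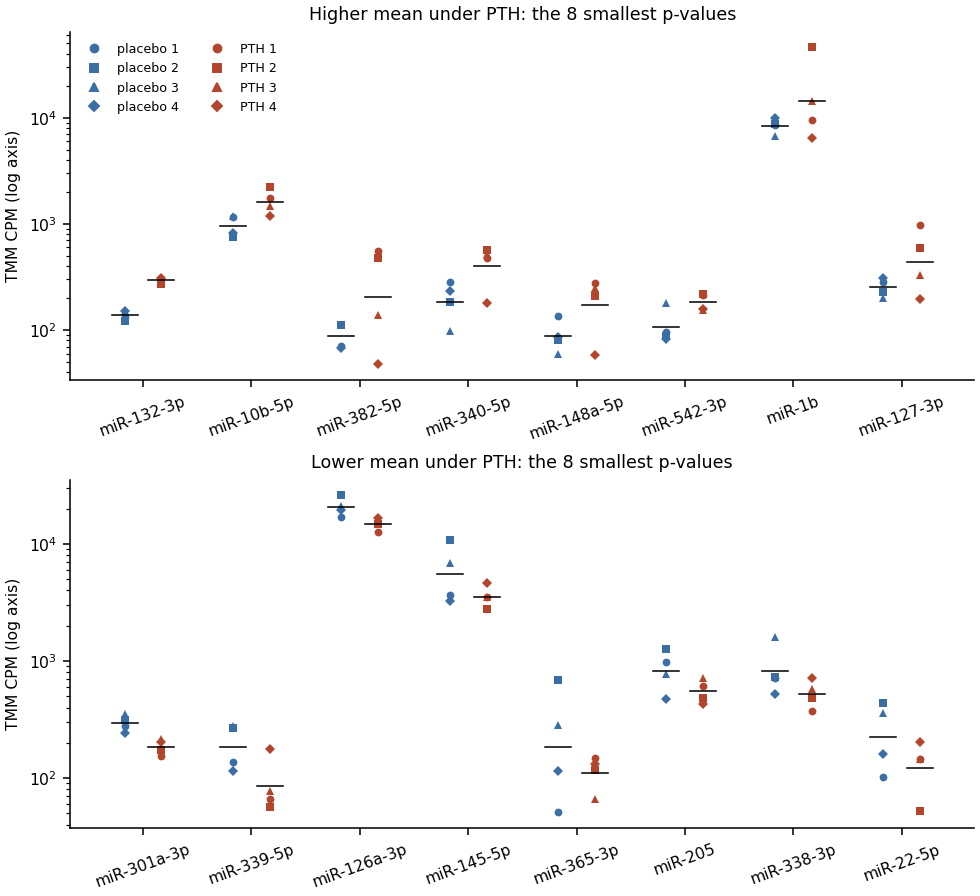
Level of the 16 miRNAs with the smallest p-values, 8 with a higher and 8 with a lower mean under PTH, as TMM CPM on a log axis, 1 symbol per bone and a black line at the geometric mean of each group of 4. MiR-132-3p forms 2 separate groups (270.4 to 307 against 121 to 151 CPM), whereas for miR-382-5p, miR-340-5p, miR-148a-5p and miR-127-3p the bone PTH 4 lies among the placebo bones or below them.

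The other miRNAs with small p-values and a higher mean under PTH overlapped between the groups. MiR-382-5p had the highest log2FC of all tested miRNAs, 1.73 (SE 0.66). It was at 556, 476, 139 and 47.5 CPM under PTH and 71.1, 111, 113 and 68.5 CPM under placebo, so that 3 PTH-treated bones were above all placebo bones and 1 was below them. MiR-340-5p, from a hairpin within Rnf130, was at 472, 569, 522 and 179 CPM under PTH and 284, 184, 97.5 and 233 CPM under placebo (log2FC 1.11, SE 0.43). Here too PTH 1 to 3 were above all placebo bones and PTH 4 was not. Its other arm, miR-340-3p, had means of 98.4 and 89.8 CPM (log2FC 0.13, SE 0.30).

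MiR-148a-5p was at 277, 210, 249.9 and 58.6 CPM under PTH and 137, 81.5, 60.0 and 86.8 CPM under placebo (log2FC 1.10, SE 0.48). PTH 4 was the lowest of the 8 bones. The main product of this hairpin, miR-148a-3p, is known as a promoter of osteoclast differentiation and was at 7148 ± 1954 CPM under PTH and 4516 ± 1409 CPM under placebo (log2FC 0.66, SE 0.30). Both arms thus had a higher mean under PTH, and the groups overlapped for each. MiR-542-3p, from the X-linked cluster with miR-450a, miR-322 and miR-503, was at 213, 218, 156 and 159 CPM under PTH and 96.4, 88.8, 180.0 and 82.2 CPM under placebo (log2FC 0.77, SE 0.34). Only placebo 3 overlapped the PTH-treated bones. Its tested neighbours within 10 kb had log2FC values of 0.26 (miR-450a-5p), 0.66 (miR-322-3p), -0.41 (miR-322-5p), 0.27 (miR-503-3p) and -0.06 (miR-351-5p). MiR-181d-5p, of the miR-181 family known from lymphocyte development, had a log2FC of 0.74 (SE 0.34).

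**Figure D2:**
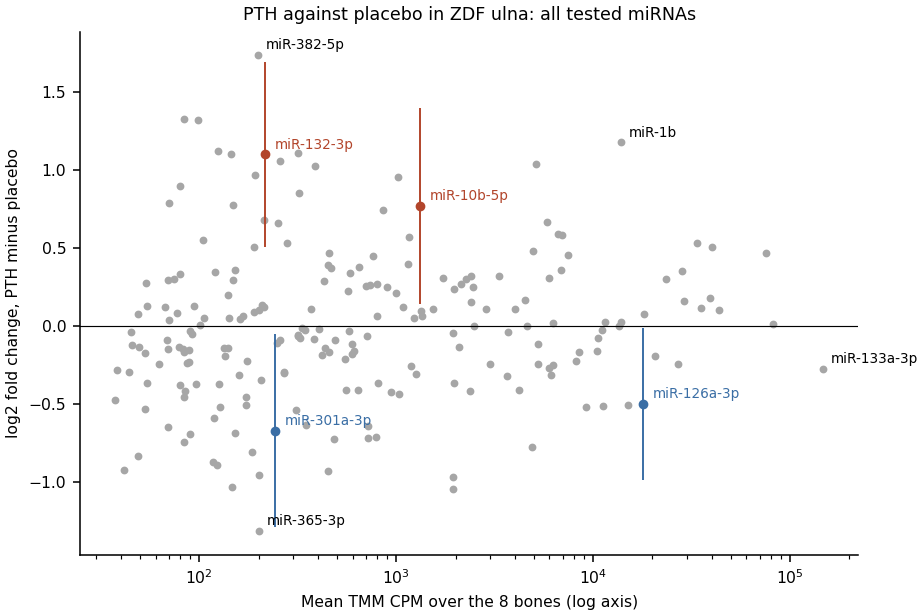
Log2FC of each of the 215 tested miRNAs against its mean TMM CPM over the 8 bones (log axis), with 95% intervals for the 4 miRNAs whose groups do not overlap, red above and blue below placebo. The median log2FC is -0.03, and of the 14 miRNAs beyond 1 in either direction 11 have a higher mean under PTH.

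Across all tested miRNAs the differences were small next to their errors. The median log2FC was -0.03, with quartiles of -0.30 and 0.29 and a range of -1.32 to 1.73. The median SE was 0.35, which gives a median 95% interval of ± 0.78 on the log2 scale. For 88 miRNAs (40.9%) the interval lay within a 2-fold change in either direction, while for the others a change of that size was not excluded by their own interval. A log2FC beyond 1 in size was seen in 14 miRNAs (6.51%), 11 higher and 3 lower.

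The miRNAs of the imprinted Dlk1-Dio3 region had the highest median log2FC of the lists described here. Its miRNAs come from a long chain of hairpins on the maternal chromosome and are known to be active in embryonic and mesenchymal tissue and in muscle progenitors. This list was drawn up after the values were seen, so its counts are a description. Of 98 listed members on chromosome 6, 20 had no read and 9 were tested. Of these, 8 had a log2FC above 0, where 47% of all tested miRNAs had one. An unadjusted p under 0.05 was seen in 3, where 6.05% of all tested miRNAs had one. The median log2FC was 1.02, against -0.03 for all tested miRNAs, and none passed FDR < 0.2.

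The difference came from PTH 1 and PTH 2. Summed over the tested members, the region stood at 4516, 2378, 1127 and 902 CPM under PTH and at 1127, 1190, 1013 and 1123 CPM under placebo. PTH 3 was level with the placebo bones and PTH 4 was below all of them. All 98 members together took 0.613%, 0.283%, 0.147% and 0.131% of miRNA reads under PTH and 0.151%, 0.165%, 0.165% and 0.158% under placebo, which put PTH 1 and 2 above and PTH 3 and 4 below the placebo bones. MiR-127-3p, the most abundant member, was at 969, 593, 328 and 197 CPM under PTH and 284, 229, 202.5 and 310.5 CPM under placebo (log2FC 1.02, SE 0.46). MiR-341 had a log2FC of 1.12 (SE 0.50), and its PTH 1 value of 348 CPM compared with 61.1 to 97.5 CPM under placebo. MiR-539-5p was at 245 and 174 CPM in PTH 1 and 2 and at 33.3 CPM in both PTH 3 and 4, with 36.5 to 57.8 CPM under placebo. MiR-376a-3p was the exception among the tested members, at 75.9, 28.3, 5.55 and 52.5 CPM under PTH and 45.7 to 105 CPM under placebo (log2FC -0.54). Members too rare to test went both ways. MiR-541-5p had 108 reads under PTH and 52 under placebo, and miR-376c-3p had 49 and 96. Without PTH 1 and 2, left out after their values were seen, the log2FC of miR-382-5p was -0.09 and that of miR-127-3p was 0.003.

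**Figure D3:**
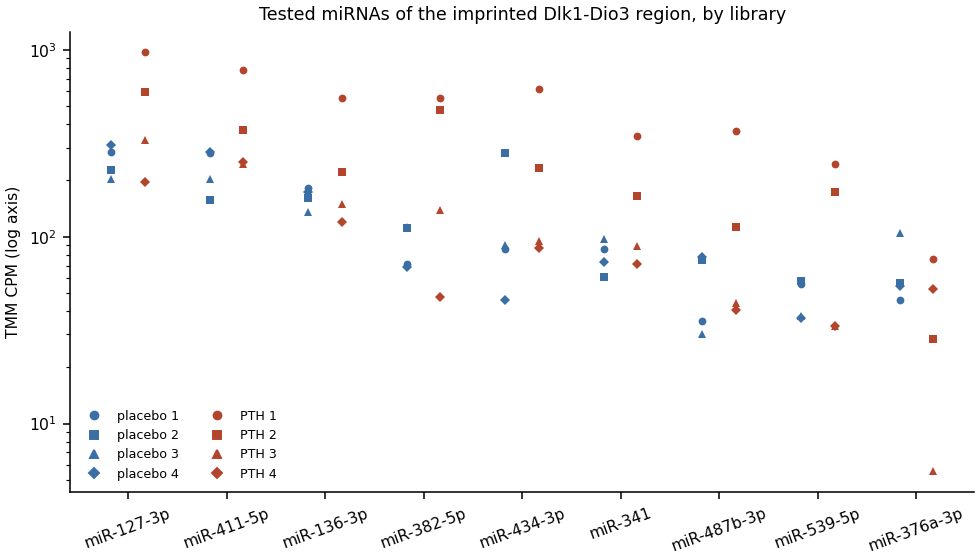
TMM CPM (log axis) of the 9 tested miRNAs of the Dlk1-Dio3 region in each bone, blue for placebo and red for PTH. PTH 1 (circles) is the highest bone for 8 of the 9 and PTH 2 (squares) mostly the next, while PTH 3 and PTH 4 lie within or near the placebo range, except for miR-376a-3p in PTH 3 (5.55 CPM against 45.7 to 105 CPM under placebo).

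In the muscle miRNAs single bones stood out. MiR-1b, of the miR-1/206 seed family of skeletal and heart muscle, was at 9517, 45964, 14473 and 6443.5 CPM under PTH and 8512, 8689, 6743 and 9904 CPM under placebo (log2FC 1.17, SE 0.52). PTH 2 was far above the rest, and PTH 4 was the lowest of all. MiR-1-3p, near-identical to miR-1b so that mapping may split their reads, reached 17349 CPM in PTH 2 and 2703 to 4254 CPM in the other 7 bones (log2FC 1.04, SE 0.53). MiR-206-3p was likewise highest in PTH 2, with 3144.5 CPM there and 554 to 972 CPM elsewhere (log2FC 0.96, SE 0.50). The miR-133 family behaved differently. MiR-133a-3p was at 169358, 129339, 124388 and 108357 CPM under PTH, and at 94042, 377323, 101504 and 70953 CPM under placebo, where placebo 2 stood apart (log2FC -0.28, SE 0.48). Placebo 2 was also the highest bone for miR-133b-3p, at 6746 CPM against 959 to 1566 CPM in the other 7. Over the 9 tested members of the muscle list the median log2FC was -0.12, with 4 above and 5 below 0. An unadjusted p under 0.05 was seen in 1 of them, where 6.05% of all tested miRNAs had one. The part of muscle content in the other results was not tested.

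Among miRNAs with a lower mean under PTH, miR-339-5p was at 66.1, 56.5, 77.7 and 177 CPM under PTH and 137, 268, 277.5 and 114 CPM under placebo (log2FC -1.04, SE 0.46). Only PTH 4 reached the placebo range. MiR-365-3p had the lowest log2FC of all, -1.32 (SE 0.65), with 66.6 to 147 CPM under PTH and 50.8, 692, 285 and 114 CPM under placebo, so that placebo 2 and 3 set the difference. MiR-145-5p, a smooth muscle and mesenchymal miRNA, was at 3517, 2777, 3488 and 4594 CPM under PTH and 3670, 10807, 6923 and 3274 CPM under placebo (log2FC -0.78, SE 0.38). Its partner in the same host transcript, Carmn, is miR-143-3p, whose mean was higher under PTH (87365 ± 17274 against 63390 ± 18646 CPM; log2FC 0.46, SE 0.27). The other arm of the miR-145 hairpin, miR-145-3p, had a log2FC of 0.25 (SE 0.28). MiR-338-3p, which lies in Aatk, had a log2FC of -0.72 (SE 0.38) and was at 1613 CPM in placebo 3 against 377 to 732 CPM in the other 7 bones. MiR-22-5p (log2FC -0.96, SE 0.51) and the epithelial miR-205 (log2FC -0.64, SE 0.34) also overlapped between the groups. The main arm of the former hairpin, miR-22-3p, had a log2FC of -0.20 (SE 0.22).

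The bone lists gave no call at FDR < 0.2. Of 18 listed regulators of osteoblast differentiation, which include repressors of RUNX2 and of Wnt signalling as well as the miR-29 family that targets collagen and Wnt inhibitors, 16 were tested. Of these, 12 had a log2FC below 0 and 4 above, where 114 of all 215 tested miRNAs were below 0 and 101 above. None had an unadjusted p under 0.05, and the median was -0.31 against -0.03 for all tested miRNAs. Several members share a family or a cluster, so the counts are a description. MiR-29a-3p was at 24680 ± 13560 CPM under PTH and 29324 ± 9783 CPM under placebo (log2FC -0.25, SE 0.37), and miR-29c-3p at 9175 ± 4721 and 13139 ± 3809 CPM (log2FC -0.52, SE 0.36). MiR-23a-3p, of the cluster with miR-27a and miR-24, had a log2FC of -0.52 (SE 0.37) and miR-24-3p one of 0.02 (SE 0.29). MiR-30a-5p, of a family that represses RUNX2, was at 47289 ± 13067 CPM under PTH and 33377 ± 9361 CPM under placebo (log2FC 0.50, SE 0.28). MiR-26a-5p, the second most abundant miRNA, was at 82042 ± 16296 and 81415 ± 20093 CPM (log2FC 0.01, 95% interval -0.56 to 0.58).

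Of 12 mesenchymal and osteoblast miRNAs, 11 were tested, 6 with a log2FC above and 5 below 0, at a median of 0.11. MiR-10b-5p was the 1 with an unadjusted p under 0.05, where 6.05% of all tested miRNAs had one. MiR-199a-3p, which comes from a mesenchymal cluster with miR-214, was at 7994 ± 3886 CPM under PTH and 5325 ± 1632 CPM under placebo (log2FC 0.59, SE 0.35). MiR-99a-5p (log2FC 0.11, SE 0.24) and miR-152-3p (log2FC 0.27, SE 0.22) differed by less. Of 9 osteoclast and monocyte miRNAs, 7 were tested, 4 above and 3 below 0, at a median of 0.16. MiR-21-5p, which supports osteoclast formation, was at 30493 ± 6792 and 27311 ± 10647 CPM (log2FC 0.16, SE 0.32), and miR-223-3p, the miRNA of myeloid cells, at 1976 ± 537 and 2181 ± 535 CPM (log2FC -0.14, SE 0.28). The 4 tested cartilage miRNAs had a median of -0.21, and miR-140-3p, the most abundant of them, had a log2FC of 0.02 (SE 0.25).

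**Figure D4:**
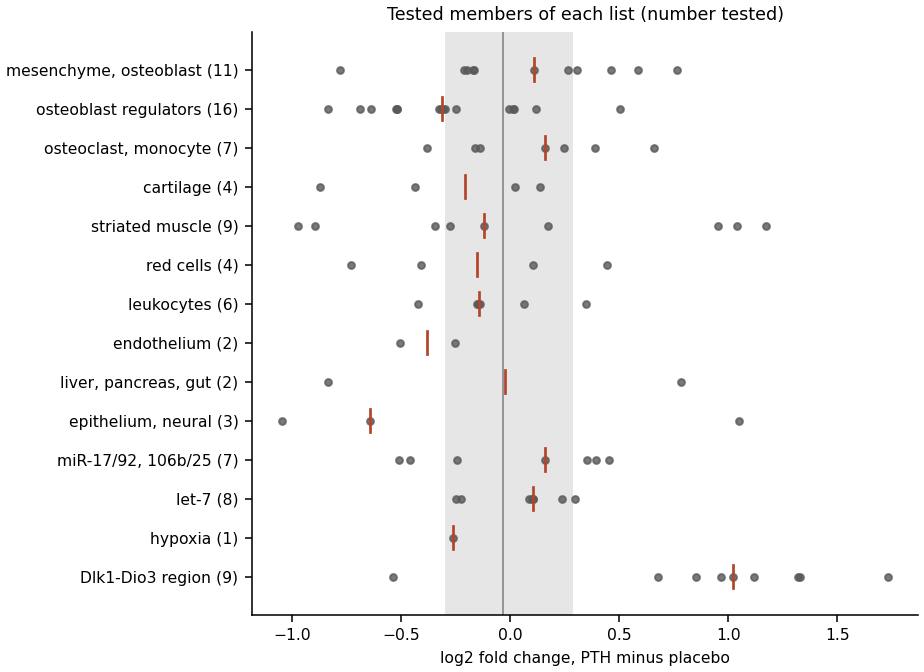
Log2FC of every tested member of each list (grey points), with the list's median as a red bar, the quartile range of all 215 tested miRNAs as a grey band and their median as a line. Most medians lie within the band of -0.30 to 0.29, and that of the osteoblast regulators (16 tested) lies just below it at -0.31. Those of the endothelial list (2 tested) and the epithelial and neural list (3 tested) lie further below it. The Dlk1-Dio3 region, chosen after its values were seen, lies at 1.02.

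The lists of blood and other cell types gave no call either. The 4 red cell miRNAs had a median of -0.15, with miR-451-5p at 3596 ± 938 CPM under PTH and 4783 ± 761 CPM under placebo (log2FC -0.41, SE 0.26). The 6 leukocyte miRNAs had a median of -0.14, with miR-150-5p, a miRNA of mature lymphocytes, at 0.06 (SE 0.36). The 7 tested members of the miR-17/92 and miR-106b/25 clusters, which are linked to proliferation, had a median of 0.16, and the 8 let-7 miRNAs one of 0.10. MiR-210-3p, a target of hypoxia signalling, was at 1074 ± 283 and 1290 ± 300.4 CPM (log2FC -0.26, SE 0.29). Few members of the liver, pancreas and gut list (2 of 6) and of the epithelial and neural list (3 of 9) were abundant enough to test. The 3 epithelial and neural ones had log2FC values of -1.04 (miR-203a-3p), -0.64 (miR-205) and 1.05 (miR-9a-5p).

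The most abundant miRNAs overlapped between the groups. None of the 10 with the highest means had an unadjusted p under 0.05. MiR-378a-3p, of muscle and fat metabolism, was at 41663 ± 5746 CPM under PTH and 36914 ± 5696 CPM under placebo (log2FC 0.17, 95% interval -0.31 to 0.66). Let-7i-5p had a log2FC of 0.10 (95% interval -0.58 to 0.78), miR-101a-3p one of 0.53 (-0.16 to 1.22) and miR-181a-5p one of 0.35 (-0.35 to 1.05). Among the 354 miRNAs with a read that were too rare to test, none had at least 3 reads in all 4 bones of one group and no read in the other.

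One PTH-treated bone decided the count of calls. Without PTH 4, 16 miRNAs passed FDR < 0.2 (lowest FDR 0.143), 11 higher and 5 lower under PTH, and leaving out any other single bone gave 0. The 11 were miR-132-3p, miR-10b-5p, miR-382-5p, miR-340-5p, miR-148a-5p, miR-127-3p, miR-341, miR-539-5p, miR-1b, miR-9a-5p and miR-181d-5p. The 5 lower ones were miR-339-5p (log2FC -1.58), miR-16-5p (-0.88), miR-29c-3p (-0.92), miR-101a-5p (-1.79) and miR-139-5p (-1.73), of which miR-16-5p is known for restraining the cell cycle and miR-29c-3p for targeting collagen transcripts. Over all tested miRNAs, the log2 levels of PTH 4 correlated most closely with those of placebo 3 (Pearson's r = 0.984), and with PTH 1 and 2 at 0.931. Correlations with the other placebo bones were 0.963 to 0.973 and with PTH 3 was 0.969. This was not particular to PTH 4. PTH 3 also correlated most closely with a placebo bone, placebo 1 (0.979), and placebo 2 most closely with PTH 4 (0.963). PTH 4 had the second highest depth of the 8 bones, at 971036 miRNA reads, and its labels do not differ from those of the other PTH-treated bones. MiR-132-3p is the exception to this pattern, since PTH 4 had its highest level. Without PTH 4 its log2FC was 1.08, against 1.10 with all bones, and its edgeR p was 0.0045, against 0.0018. Its FDR fell to 0.155 although its own p did not fall, since the FDR also depends on the p-values of the other miRNAs.

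In WT ulna under the same treatments, 12 of 222 tested miRNAs passed FDR < 0.2 (5.41%), all lower under PTH. With the RLE size factors of DESeq2 there were 21, 8 higher and 13 lower, and with miRNA totals 18, 5 higher and 13 lower, so the split depended on the scaling. The WT PTH bones were also shallow, at 54497, 41627, 163549 and 282285 miRNA reads. Across the 207 miRNAs tested in both genotypes, which share no library, the log2FC values of ZDF and WT bone had a Pearson's r of 0.462 and a Spearman's rho of 0.441, and 135 had the same sign. These are descriptions across miRNAs, which are not independent replicates.

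Most of the 16 miRNAs with the smallest p-values in ZDF bone had the same sign in WT bone. They included miR-148a-5p (log2FC 2.64 in WT), miR-1b (2.30), miR-10b-5p (1.43), miR-339-5p (-1.10) and miR-365-3p (-1.23). MiR-340-5p (0.78), miR-127-3p (0.58), miR-145-5p (-0.70), miR-205 (-0.71) and miR-126a-3p (-0.28) were also among them. MiR-1b and miR-148a-5p were highest in WT PTH 2, the shallowest bone, at 45692 and 1627 CPM on the scale of all 16 bones. The opposite sign in WT bone was seen for miR-382-5p (log2FC -0.02), miR-301a-3p (0.26) and miR-338-3p (0.71). MiR-132-3p was at 120, 0, 285 and 461 CPM in the WT PTH bones and 85.5, 205, 216 and 198 CPM in the WT placebo bones, on the same scale. The WT groups overlapped (log2FC 0.47, edgeR FDR = 0.743), and the difference between the responses of the genotypes was 0.62 with an SE of 0.73 (interaction FDR = 0.874).

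**Figure D5:**
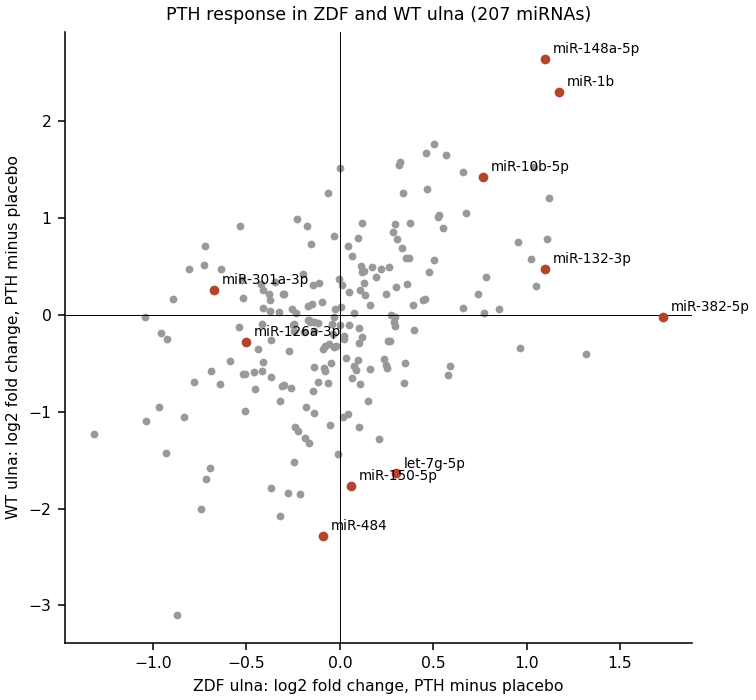
Log2FC under PTH in ZDF ulna (x axis) and WT ulna (y axis) for the 207 miRNAs tested in both, with miRNAs named in the text in red. The points slope upward loosely (Pearson's r = 0.462), miR-382-5p lies at 1.73 in ZDF and -0.02 in WT bone, and let-7g-5p, miR-150-5p and miR-484 lie low in WT bone and near 0 in ZDF bone.

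The test of the difference itself gave no call. In the interaction over all 16 bones, 0 of 243 miRNAs passed FDR < 0.2 (lowest FDR 0.524), with 13 (5.35%) at an unadjusted p under 0.05 and 1 call by DESeq2. Without WT placebo 1 there were 21 calls and without ZDF placebo 2 there were 7, and leaving out any other single bone gave 0. The smallest p-value was that of let-7g-5p, a member of the let-7 family that restrains proliferation. It was at 2495 ± 919 CPM in ZDF PTH and 2091 ± 538 CPM in ZDF placebo bones, and at 796 ± 153 and 2627 ± 1616 CPM in the WT PTH and placebo bones. The difference of the responses, ZDF minus WT, was 1.97 (SE 0.58, edgeR FDR = 0.524). Let-7i-5p (1.299, SE 0.48), miR-150-5p (1.88, SE 0.64), miR-484 (2.19, SE 0.78) and miR-196a-5p (3.06, SE 1.01), a Hox cluster miRNA, followed with the same sign. Their log2FC in ZDF bone in this fit was 0.08, 0.01, -0.16 and 0.73. Their differences thus came mostly from WT bone, where levels were lower under PTH than under placebo. Whether the WT PTH or the WT placebo bones set this was not tested. MiR-196a-5p was too rare to test in ZDF bone alone, with 74 reads under PTH and 42 under placebo.

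In serum of ZDF rats the same treatments were compared. None of 154 tested miRNAs passed FDR < 0.2 in 5 PTH against 5 placebo sera (0%, lowest FDR 0.993), and 4 had an unadjusted p under 0.05 (2.6%). In serum the log2FC was 0.15 for miR-132-3p (SE 0.41), 0.28 for miR-10b-5p (SE 0.38), -0.32 for miR-126a-3p (SE 0.31) and -0.01 for miR-301a-3p (SE 0.37). The difference between bone and serum was not tested. MiR-382-5p, miR-127-3p, miR-1b, miR-148a-5p and miR-542-3p were too rare in serum to test.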

How the data were processed

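Small RNA libraries of ulna bone were prepared with the RealSeq-Biofluids kit from mortar-ground bone and sequenced on a NextSeq550. Per the study's methods and labels, the authors used cutadapt for adapters, dropped reads under 17 nt, aligned with bowtie and miRDeep2 against the genome (up to 2 mismatches) and next the miRBase rat set (up to 1), and tested with edgeR. The deposited counts are whole reads per mature miRNA, without normalization. The deposited RPM values are scaled to all reads of the library and gave the library totals used here. A column of RPM scaled to miRNA reads and the rows of added control RNAs were left out.

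The test of counts was run with edgeR 4.0.16 under R 4.3.3 (filterByExpr with a minimum count of 10, TMM, quasi-likelihood test with legacy = TRUE and robust = FALSE, Benjamini-Hochberg FDR < 0.2), with the 8 ZDF bones alone in the fit. DESeq2 1.42.0 and limma 3.58.1 (voom with quality weights) were alternatives, as were other filters, scalings and each bone left out in turn. Single miRNAs were compared by two-sided exact permutation of log2(TMM CPM + 1), with a pseudocount of 0.5 as an alternative. WT bone, ZDF serum and the interaction over 16 bones were fitted in the same way. The fit was tested on simulated data. Replicate numbers follow the order of the samples in the series and are only names. The p-values of the fits weigh the difference between groups against the spread between animals of a group. No pair of replicates agreed within counting noise (lowest chi-squared statistic of a pair 38.9 for each degree of freedom).

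The miRNAs and lists were chosen with earlier results of these data known. Named are the 8 higher and 8 lower miRNAs of smallest p, the 10 of highest mean, those whose groups do not overlap, the 5 of smallest interaction p, and examples of each list. The Dlk1-Dio3 list, the calls without PTH 4, the arms and neighbours of named miRNAs, and miR-10a-5p, miR-130a-3p, miR-181d-5p and miR-133b-3p were added after values were seen. RefSeq (GRCr8) gave a sequence for 196 of the 215 tested miRNAs.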

Additional observations from a re-analysis of the deposited data

Results flagged for a closer look

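Of 60 groups of 4 bones examined, 2 held a bone that stood apart from the other 3, and chance alone marks about 1 in 20 such groups. There was 1 group for each treatment and named miRNA tested in ZDF bone, and 1 for the share of reads on miRNAs in each treatment. MiR-133a-3p was at 377323 CPM in placebo 2 and at 70953 to 101504 CPM in the other placebo bones. MiR-542-3p was at 180.0 CPM in placebo 3 and at 82.2 to 96.4 CPM in the other placebo bones, so that this single bone overlapped the PTH-treated ones.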

How the results depend on the processing

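The count of 0 calls at FDR < 0.2 in ZDF bone was also found with no filter, with independent filtering, with all 16 bones in the fit, with RLE, miRNA totals or all library reads for scaling, with limma-voom, with legacy = FALSE, with robust = TRUE and at FDR < 0.05. DESeq2 gave 1 call, miR-132-3p. Leaving out each bone in turn gave 0 to 16 calls, and 16 only without PTH 4. For the interaction DESeq2 gave 1 call, and leaving out 1 bone gave 0 to 21: 21 without WT placebo 1, 7 without ZDF placebo 2 and 0 otherwise. The cause was not tested. The log2FC of miR-132-3p was 1.02 to 1.17 over 20 alternatives, with an FDR of 0.155 to 0.999, the highest when scaled to all library reads. Of the 16 miRNAs with the smallest p, the sign held over the 20 alternatives in all but miR-382-5p, at -0.0851 without PTH 1 and 2, an alternative chosen after the data were seen. Of the 4 miRNAs whose groups lay apart, 3 did so when scaled to miRNA totals or by TMM over 16 bones. With all library reads no one of the 4 did so, and 1 other miRNA did; these scalings too were added after the data were seen. The pseudocount of 0.5 changed no exact p across 0.05. The log2 share of reads on miRNAs, PTH minus placebo, was 0.18 and ranged from -0.06 to 0.66 without single bones. With 116097 miRNA reads in the shallowest bone, miR-212-3p and most members of the Dlk1-Dio3 region could not be compared. No paired analysis was possible because the labels give no number that links bones across groups.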
